A study of Mus musculus with 39 samples.

Results

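Tumour necrosis factor and the feedback genes of NF-κB were followed through serial transplants of AE9a-driven acute myeloid leukaemia in mice. The set holds 7 of the 22180 genes measured, chosen by name, each read from the probe set that the platform annotation gives to that gene alone (the probe set with the highest mean where a gene had several). NF-κB is a family of transcription factors held in the cytoplasm by inhibitory IκB proteins. When tumour necrosis factor or a Toll-like receptor ligand reaches a cell, the IκB proteins are degraded and NF-κB enters the nucleus, where it switches on inflammatory genes and, with them, its own inhibitors. In the blood system the pathway operates in monocytes, macrophages and neutrophils, among other cells.

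Tnf encodes the ligand, tumour necrosis factor. Nfkbia and Nfkbie encode IκBα and IκBε, which hold NF-κB in the cytoplasm and are resynthesised after a stimulus. Nfkbiz encodes IκBζ, a nuclear IκB protein that helps switch on secondary inflammatory genes. Tnfaip3 encodes A20, a ubiquitin-editing enzyme that shuts off signalling from the TNF receptor, and Tnip3 encodes ABIN-3, an A20-binding protein. Icam1 encodes an adhesion molecule that is bound by leukocyte integrins and is a classical NF-κB target.

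The leukaemias carry AE9a, the shorter splice product of the AML1-ETO fusion that arises from the t(8;21) translocation. The 3 leukaemia arms were AE9a+miR-126, in which miR-126 was added, miR-126KO+AE9a, in which the donor cells lacked miR-126, and AE9a alone. Each arm was carried through 4 passages of bone marrow transplantation with 3 recipient mice per passage, and 3 normal controls came from passage 1, which gave 39 mice in 13 groups, 1 array each. Donor cells marked by CD45.1 were sorted from the marrow of recipients at end stage, and their RNA was read on Affymetrix mouse gene arrays. All 13 groups therefore share transplantation into a recipient and the sort, and all but the normal controls share AE9a. Which donor gave rise to which recipient is not in the labels, and p-values here measure spread among these recipients only. Mouse age, strain and the vector that carried AE9a or miR-126 were not given in the labels.

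The perturbed microRNA and the upstream sequence of the feedback genes are shown because the groups differ in the first and the results below concern genes known to be switched on through the second. The mature microRNA lies on chromosome 2 (chr2:26591402-26591423, plus strand), is 22 bases long, and has its seed, bases 2 to 8, in capitals:
mmu-miR-126a-3p: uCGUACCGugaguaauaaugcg
The 150 bases before the annotated start follow for the 4 members whose sequence held a match to the 10-base NF-κB consensus, with each match in capitals, 5′ to 3′ on the strand of the gene. All are RefSeq sequence of build GRCm38.p6. Tnip3 comes from chr6:65590248-65590397 (plus strand), Nfkbie from chr17:45555550-45555699 (plus strand), Nfkbia from chr12:55492648-55492797 (minus strand) and Tnfaip3 from chr10:19015411-19015560 (minus strand, the outermost of 2 annotated starts):
Tnip3: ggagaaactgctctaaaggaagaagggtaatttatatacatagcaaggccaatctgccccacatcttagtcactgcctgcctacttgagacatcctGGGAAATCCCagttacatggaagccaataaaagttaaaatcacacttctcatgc
Nfkbie: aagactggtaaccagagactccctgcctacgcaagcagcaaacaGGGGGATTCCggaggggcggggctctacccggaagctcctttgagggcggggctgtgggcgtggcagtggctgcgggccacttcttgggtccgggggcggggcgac
Nfkbia: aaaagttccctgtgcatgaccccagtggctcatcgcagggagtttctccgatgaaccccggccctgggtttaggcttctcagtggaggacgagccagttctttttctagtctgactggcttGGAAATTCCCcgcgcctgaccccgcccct
Tnfaip3: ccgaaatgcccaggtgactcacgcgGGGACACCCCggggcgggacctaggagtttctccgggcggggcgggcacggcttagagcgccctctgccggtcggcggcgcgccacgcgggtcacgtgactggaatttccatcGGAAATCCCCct
The first base of the match lies 54 bases before the start in Tnip3, 106 in Nfkbie and 29 in Nfkbia, and the 2 matches of Tnfaip3 begin 125 and 12 bases before it. Both strands were searched over 250 bases, and a position that matched on both strands was counted once. Tnf and Icam1 had no match in that window, and Nfkbiz is named only. Of all 32851 promoter entries 7.25% held a match, so a match describes the letters and is not a measured binding site.

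On the same build Tnf (gene ID 21926) lies on chromosome 17 from 35199367 to 35202007, Nfkbie (18037) on chromosome 17 from 45555700 to 45563169, Nfkbia (18035) on chromosome 12 from 55489409 to 55492647 and Nfkbiz (80859) on chromosome 16 from 55811375 to 55838954. Tnfaip3 (21929) lies on chromosome 10 from 19000910 to 19015410, Tnip3 (414084) on chromosome 6 from 65590398 to 65634040 and Icam1 (15894) on chromosome 9 from 21015940 to 21028814.

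Values are the authors' deposited log2 expression values, on which a difference of 1 is a 2-fold difference. They ran from 2.11 to 13.2 over the arrays with a median of 5.52. No detection call was given, so a low value has no known background, and values of different genes come from different probes and are not set against each other. Each difference below comes from 1 limma model of all 39 arrays and 22180 genes, with its standard error after the ± sign and a Benjamini-Hochberg adjusted p. The threshold was an adjusted p of 0.05. In bulk RNA, fewer cells of a type and less RNA of a gene per cell cannot be told apart.

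Some arrays stood apart. The spread of an array, the SD over its probe sets, ran from 1.43 to 2.08, and 8 arrays lay under 1.8, of which 7 were AE9a+miR-126 arrays of passages 2 to 4 (replicates 1 and 2 of passages 2 and 4, all 3 of passage 3) and 1 was miR-126KO+AE9a at passage 2. Every later result with added miR-126 rests partly on them. Most such results of the members, and the pathway list counts against AE9a over 4 passages, are therefore also given without the 8 arrays. The marker list counts are not. The probe set annotated to Mir126a and Egfl7 together read 5.90 to 11.6 (median 8.08) over 12 AE9a+miR-126 arrays, 2.77 to 3.15 in the knockout arm, 2.76 to 3.04 in AE9a and 2.97 to 3.88 in the normal controls, so it shows added miR-126 but offers no check of the deletion. Arrays of a group correlated at 0.885 to 0.992, and 0 pairs of arrays were identical.

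**Figure D1:**
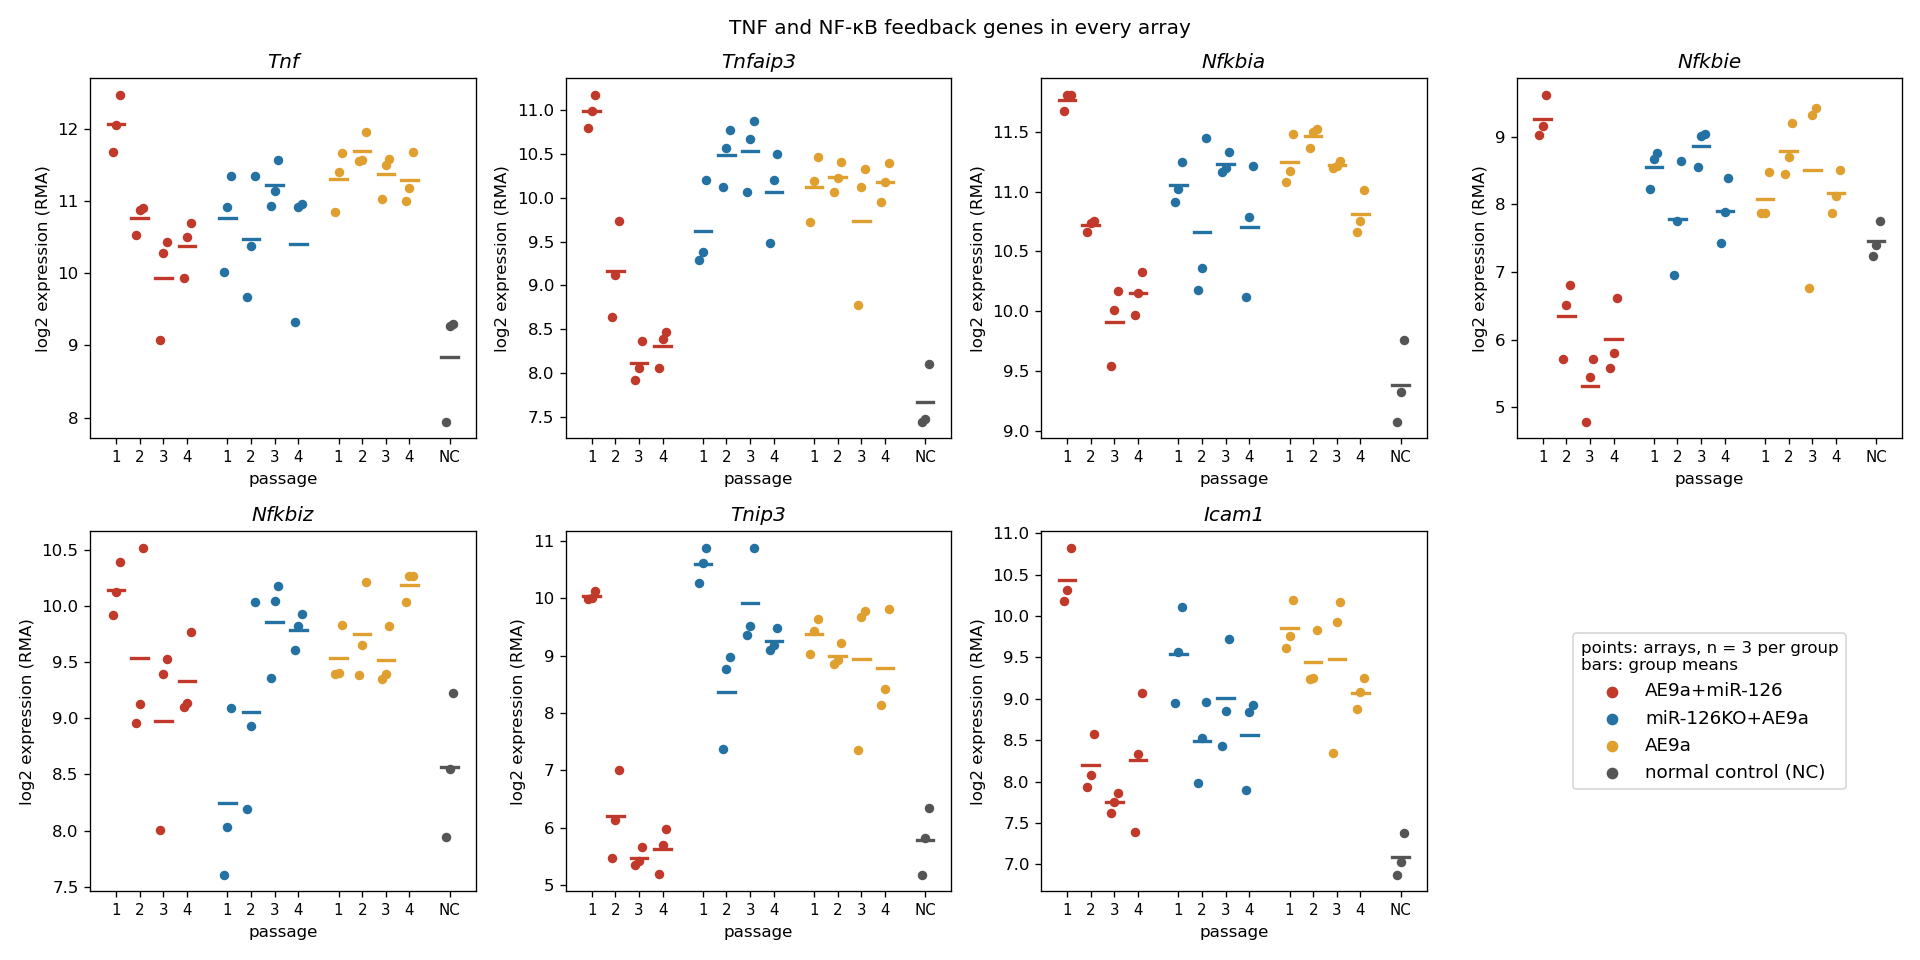
Log2 expression of each of the 7 genes on all 39 arrays, 1 panel per gene, with points for single mice, bars for group means (n = 3) and groups ordered by arm and passage with the normal controls at the right. The AE9a+miR-126 points of Tnip3 lie between 9.98 and 10.13 at passage 1 and between 5.19 and 7.0 at passages 2 to 4, where those of AE9a lie between 7.36 and 9.82.

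At passage 1, leukaemia driven by AE9a alone carried more RNA of the ligand, of A20 and its partner, of IκBα and of Icam1 than normal marrow, by 3.64-fold to 12-fold. Tnf read 11.41, 11.68 and 10.85 in AE9a at passage 1, against 9.30, 9.28 and 7.94 in the normal controls. Tnip3 read 9.43, 9.03 and 9.63 in AE9a, against 5.81, 5.17 and 6.34 in the controls. In both genes every AE9a array lay above every control array. The difference was 2.48 ± 0.43 for Tnf (5.56-fold, adjusted p = 0.000406) and 3.59 ± 0.50 for Tnip3 (12-fold, adjusted p = 2.45e-05). Tnfaip3, at 10.19, 10.46 and 9.72 in AE9a, against 7.47, 8.10 and 7.44 in the controls, rose by 2.45 ± 0.33 (adjusted p = 1.63e-05). Icam1 read 9.76, 10.20 and 9.62 in AE9a, against 7.38, 6.87 and 7.02 in the controls, and rose by 2.76 ± 0.40 (6.80-fold, adjusted p = 4.84e-05).

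The IκB genes were less alike. Nfkbia read 11.17, 11.48 and 11.09 in AE9a at passage 1, against 9.07, 9.76 and 9.32 in the controls, and rose by 1.86 ± 0.24 (adjusted p = 8.99e-06). Nfkbie read 7.88, 8.48 and 7.88 in AE9a, against 7.75, 7.40 and 7.23, a difference of 0.62 ± 0.46 that did not pass (adjusted p = 0.445, 95% interval -0.33 to 1.57). Nfkbiz read 9.39, 9.83 and 9.40 in AE9a, against 8.54, 9.23 and 7.94, and its difference of 0.97 ± 0.43 did not pass either (adjusted p = 0.161). Every AE9a array lay above every control array for all 7 genes, as it did for 16.3% of all genes. By the test, 5 of the 7 genes rose at passage 1, where 3.22% of all genes tested rose.

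The other 2 leukaemia arms were set against the same 3 control mice, so their differences are not independent of those of AE9a. With added miR-126 all 7 genes rose at passage 1 (4.56% of all genes rose). Tnf read 11.68, 12.48 and 12.06 in AE9a+miR-126 and rose by 3.24 (9.43-fold, adjusted p = 7.8e-06), and Tnip3, at 9.98, 10.13 and 10.01, rose by 4.26 (19.2-fold, adjusted p = 1.05e-06). Tnfaip3 rose by 3.32, Nfkbia by 2.38 and Icam1 by 3.35. The 2 genes that had not passed in AE9a passed here, Nfkbie at 1.81 ± 0.46 (adjusted p = 0.0103) and Nfkbiz at 1.57 ± 0.43 (adjusted p = 0.0158), although both lost the call without AE9a+miR-126 replicate 2 (1.63, adjusted p = 0.059, and 1.45, adjusted p = 0.0727) and Nfkbiz also without normal control replicate 3 (1.26, adjusted p = 0.11).

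In miR-126KO+AE9a at passage 1 the same count as in AE9a passed, 5 of 7, where 4.88% of all genes rose. Tnip3 read 10.88, 10.62 and 10.27 in the knockout arm, above the 5.17 to 6.34 of the controls without overlap, and rose by 4.81 (28.1-fold, adjusted p = 1.29e-07). Every knockout array lay above every control array for 16.9% of all genes. Tnf (1.93, adjusted p = 0.0028), Tnfaip3 (1.95, adjusted p = 0.000119), Nfkbia (1.68, adjusted p = 1.37e-05) and Icam1 (2.45, adjusted p = 9.38e-05) rose. Nfkbie differed by 1.10 (adjusted p = 0.142). Nfkbiz read 8.03, 7.61 and 9.09 in the knockout arm, which overlapped the 7.94 to 9.23 of the controls with 1 array below them (-0.33, adjusted p = 0.724).

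**Figure D2:**
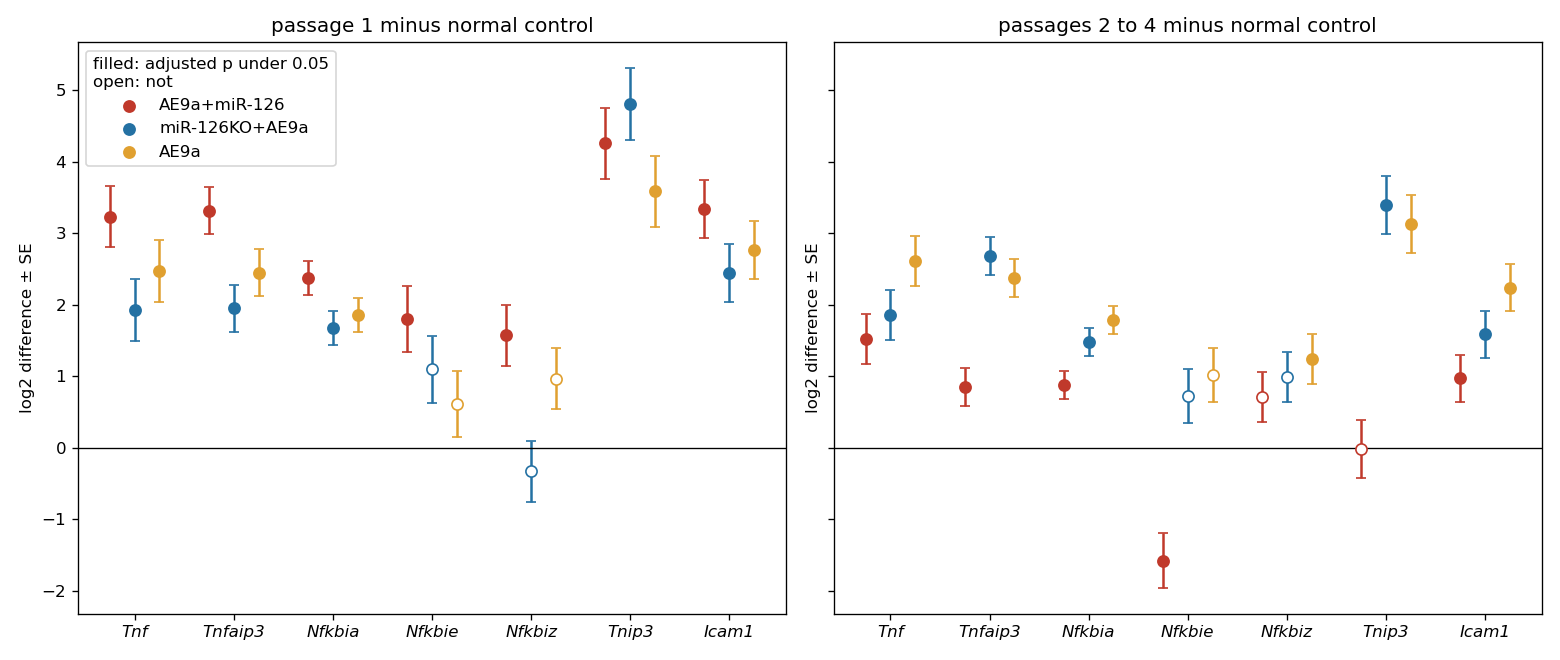
Log2 difference of each leukaemia arm from the 3 normal controls with its standard error, at passage 1 (left) and as the mean of passages 2 to 4 (right), with filled symbols where the adjusted p was under 0.05. At passage 1 all 7 genes passed with added miR-126 and 5 in each of the other arms; in the right panel Nfkbie of AE9a+miR-126 lies at -1.57 and Tnip3 at -0.01.

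At passages 2 to 4 the arms with and without added miR-126 gave unlike values against normal marrow. The controls come from passage 1, so at later passages leukaemia and passage cannot be told apart. Averaged over passages 2 to 4, 6 of 7 genes were above normal in AE9a (6.04% of all genes), with Tnf at 2.62 ± 0.35, Tnfaip3 at 2.38 ± 0.27, Tnip3 at 3.13 ± 0.41 and Nfkbie at 1.03 ± 0.38, the 1 that did not pass (adjusted p = 0.0737). Nfkbiz, at 1.25 ± 0.35 (adjusted p = 0.0154), lost its call without normal control replicate 1 (1.24, adjusted p = 0.0628) or replicate 3 (0.93, adjusted p = 0.172). The knockout arm had 5 of 7 above normal (5.03% of all genes), with Tnip3 at 3.40 and Tnfaip3 at 2.69.

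In AE9a+miR-126 at passages 2 to 4, the arrays of Tnip3 overlapped those of normal marrow and Nfkbie lay below it. The mean of Tnf stayed above normal, although replicate 3 of passage 3 (9.07) lay below normal controls 1 and 2 (9.30 and 9.28). Tnip3 read 6.14, 7.0 and 5.48 at passage 2, then 5.35, 5.65 and 5.42 at passage 3, and 5.70, 5.97 and 5.19 at passage 4, against 5.81, 5.17 and 6.34 in the controls. The 2 ranges overlapped, and the mean difference was -0.01 ± 0.41 (95% interval -0.84 to 0.82, adjusted p = 0.985), which turned to 0.61 with cyclic loess. Nfkbie read 5.71, 6.51 and 6.81 at passage 2, then 5.44, 5.71 and 4.78 at passage 3, and 5.80, 5.58 and 6.62 at passage 4, against 7.75, 7.40 and 7.23 in the controls. All 9 arrays lay below the 3 controls, as for 6.43% of all genes, and Nfkbie fell by 1.57 ± 0.38 on the log2 scale (2.98-fold lower, adjusted p = 0.00117). Tnf rose by 1.52 ± 0.35 (adjusted p = 0.000835), Tnfaip3 by 0.85 ± 0.27 (adjusted p = 0.00911), Nfkbia by 0.88 ± 0.20 (adjusted p = 0.000605) and Icam1 by 0.98 ± 0.33 (adjusted p = 0.0145). Nfkbiz, at 0.71, did not pass (adjusted p = 0.0853). Tnfaip3 lost its call without normal control replicate 1 (0.75, adjusted p = 0.062) and Icam1 without replicate 2 (0.87, adjusted p = 0.0731).

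These counts, 4 higher and 1 lower, stand in a comparison in which 29.2% of all genes were called higher and 24.3% lower. Without the arrays of low spread, which leaves 1 AE9a+miR-126 array at passage 2 and 1 at passage 4 and assumes that a lone array varies like the other groups, Tnf (1.57), Tnfaip3 (1.43) and Nfkbia (1.16) kept their calls. Nfkbie lost its call (-0.75, adjusted p = 0.419), as did Icam1 (0.64, adjusted p = 0.45), and Nfkbiz passed at 1.57 (adjusted p = 0.00901). The 2 late AE9a+miR-126 arrays of higher spread read 6.62 and 6.81 for Nfkbie, still below the controls, and 5.19 and 5.48 for Tnip3.

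Added miR-126 was then set against AE9a at each passage, the comparison of leukaemias that differ in the added microRNA. At passage 1, 0 of 7 genes passed in limma, where 0.0316% of all genes (7 genes) did. All 7 differences were above 0, from 0.52 for Nfkbia (adjusted p = 0.913) and 0.76 ± 0.43 for Tnf (adjusted p = 0.989) to 1.19 ± 0.46 for Nfkbie (adjusted p = 0.763, 95% interval 0.24 to 2.14). Nfkbie read 9.03, 9.62 and 9.15 in AE9a+miR-126, against 7.88, 8.48 and 7.88 in AE9a, without overlap. Every AE9a+miR-126 array lay above every AE9a array for 10.8% of all genes there.

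From passage 2 on all 7 differences were below 0 at each passage. Tnip3 was the member that stood farthest below AE9a. It read 6.14, 7.0 and 5.48 in AE9a+miR-126 at passage 2, against 9.21, 8.85 and 8.92 in AE9a. At passage 4 it read 5.70, 5.97 and 5.19 in AE9a+miR-126, against 9.82, 8.41 and 8.14 in AE9a. No array with added miR-126 reached an AE9a array of its passage. The same held for 16.6%, 26.2% and 13.5% of all genes at passages 2, 3 and 4. Tnip3 fell by 2.79 ± 0.50 on the log2 scale at passage 2 (6.91-fold lower, adjusted p = 0.000905), fell by 3.46 at passage 3 (11-fold lower, adjusted p = 4.75e-06) and fell by 3.17 at passage 4 (9.02-fold lower, adjusted p = 3.15e-05). The call held at passage 2 in all 11 alternatives run and at passage 4 in all 11, with -3.52 (adjusted p = 0.0057) and -3.60 (adjusted p = 0.000892) without the arrays of low spread. At passage 3, where all 3 AE9a+miR-126 arrays were of low spread, it held in the 10 alternatives that could be run.

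Nfkbie, the gene of IκBε, was also lower at each later passage. At passage 2 it read 5.71, 6.51 and 6.81 in AE9a+miR-126, against 9.20, 8.46 and 8.70 in AE9a. At passage 3 it read 5.44, 5.71 and 4.78 in AE9a+miR-126, against 6.76, 9.42 and 9.33 in AE9a. The groups did not overlap at either passage, although AE9a replicate 1 of passage 3 read far below its group for this gene, and also for Tnip3 (7.36), Tnfaip3 (8.77) and Icam1 (8.35). Nfkbie fell by 2.44 ± 0.46 at passage 2 (adjusted p = 0.0016), fell by 3.19 at passage 3 (9.14-fold lower, adjusted p = 5.31e-06) and fell by 2.17 at passage 4 (4.49-fold lower, adjusted p = 0.00132). With the arrays of low spread left out, the differences at passages 2 and 4 were -1.98 (adjusted p = 0.101) and -1.55 (adjusted p = 0.137), so these calls were lost with 1 AE9a+miR-126 array left at each passage.

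Tnfaip3 read 8.06, 8.39 and 8.47 in AE9a+miR-126 at passage 4, against 10.40, 10.18 and 9.95 in AE9a. The arrays did not overlap, and Tnfaip3 fell by 1.07 ± 0.33 at passage 2 (adjusted p = 0.0401), fell by 1.63 at passage 3 (adjusted p = 0.000249) and fell by 1.87 at passage 4 (3.66-fold lower, adjusted p = 0.000143). The call at passage 4 held without the arrays of low spread (-1.70, adjusted p = 0.0223) and that at passage 2 did not (-0.50, adjusted p = 0.722). The passage 2 call of Tnfaip3 was also lost in 5 of 6 fits that each left out 1 array (-1.35 to -0.81 over the 6). Nfkbia was lower too, at -0.75 ± 0.24 (adjusted p = 0.0482), -1.32 (adjusted p = 8.22e-05) and -0.66 (adjusted p = 0.043) at passages 2, 3 and 4. At passages 2 and 4 it lost the call without the arrays of low spread (-0.71 and -0.48, adjusted p = 0.357 and 0.518) and in 5 of 6 fits that each left out 1 array.

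Tnf and Icam1 passed at passage 3 alone. Tnf read 10.29, 10.44 and 9.07 in AE9a+miR-126 at passage 3, against 11.03, 11.51 and 11.59 in AE9a, and fell by 1.44 (adjusted p = 0.0071), a call lost without AE9a+miR-126 replicate 3 (-1.01, adjusted p = 0.086). Icam1 read 7.62, 7.75 and 7.87 in AE9a+miR-126, against 8.35, 9.93 and 10.17 in AE9a, and fell by 1.74 (adjusted p = 0.000981). Neither gene overlapped between the arms there, where every AE9a+miR-126 array lay below every AE9a array for 26.2% of all genes. At passages 2 and 4 the differences were -0.93 (adjusted p = 0.156) and -0.91 (adjusted p = 0.111) for Tnf, and -1.24 (adjusted p = 0.0502) and -0.81 (adjusted p = 0.13) for Icam1. Nfkbiz passed at no passage, with -0.21, -0.55 (adjusted p = 0.283) and -0.85 (adjusted p = 0.131) at passages 2, 3 and 4. It read 8.95 to 10.52 in AE9a+miR-126 at passage 2, on both sides of the 9.38 to 10.21 of AE9a.

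By count, 4 members were lower at passage 2, 6 at passage 3 and 4 at passage 4, where 5.68%, 24.8% and 12.0% of all genes were lower. The passage 3 calls could not be tested without the arrays of low spread. With cyclic loess 4 of those 6 were lost, Tnf (-0.29, adjusted p = 0.625), Tnfaip3 (-0.51, adjusted p = 0.263), Nfkbia (-0.16, adjusted p = 0.666) and Icam1 (-0.67, adjusted p = 0.301), and Tnip3 and Nfkbie kept theirs. Averaged over the 4 passages 6 were lower, where 24.3% of all genes were. Tnip3 fell by 2.19 ± 0.25 (4.55-fold lower, adjusted p = 7.78e-08), followed by Nfkbie (-1.65 ± 0.23, adjusted p = 2.01e-06), Tnfaip3 (-0.93 ± 0.16, adjusted p = 5.07e-05), Icam1 (-0.80 ± 0.20, adjusted p = 0.00182), Tnf (-0.63 ± 0.22, adjusted p = 0.0157) and Nfkbia (-0.55 ± 0.12, adjusted p = 0.000464). Nfkbiz, at -0.25 ± 0.21, did not pass (adjusted p = 0.317). The passages of an arm are serial transplants, so their arrays may not be independent. With passage as the unit no member passed in limma (Tnip3 adjusted p = 0.107), and 1 gene of all did. Without the arrays of low spread the average runs over passages 1, 2 and 4, and Tnip3 alone kept its call (-2.15, adjusted p = 0.000495), while Nfkbie read -0.78 (adjusted p = 0.228), Tnfaip3 -0.45 (adjusted p = 0.442) and Tnf -0.47 (adjusted p = 0.541). Icam1 (-0.82, adjusted p = 0.139) and Nfkbia (-0.23, adjusted p = 0.667) were lost too.

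**Figure D3:**
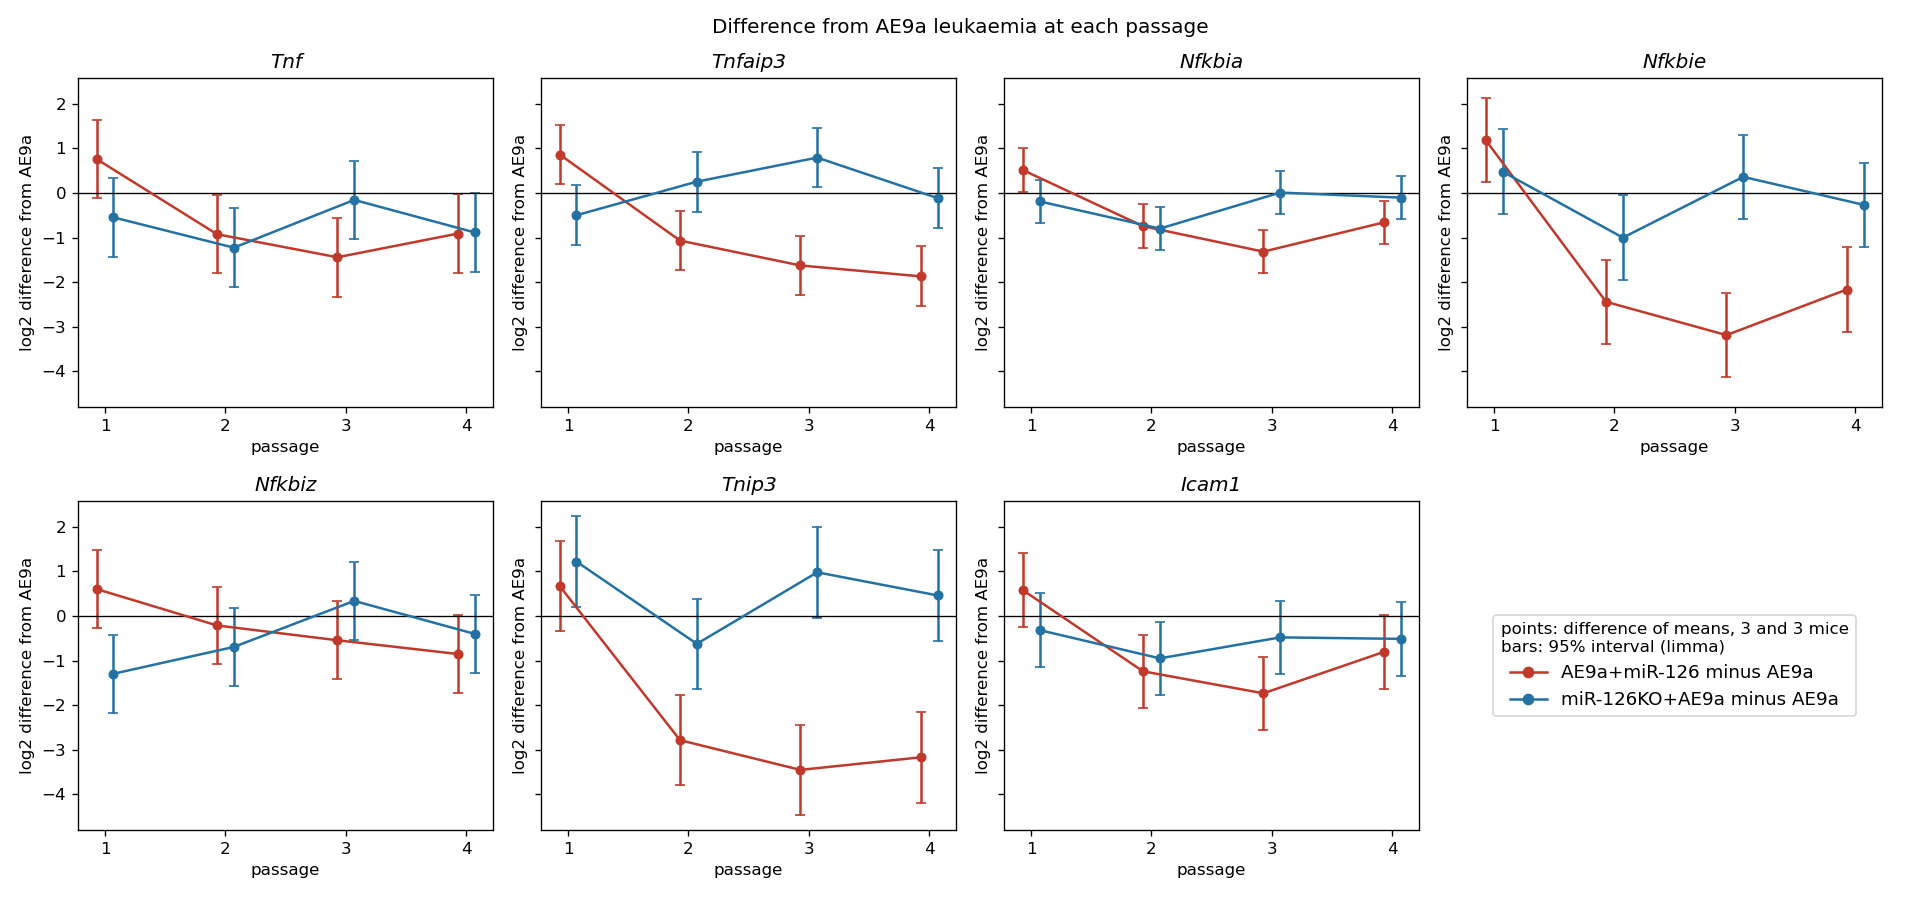
Log2 difference from AE9a of the same passage, with its 95% interval from limma, for AE9a+miR-126 (red) and miR-126KO+AE9a (blue) at passages 1 to 4, 1 panel per gene. The red points of Tnip3 lie above 0 at passage 1 and at -2.79, -3.46 and -3.17 at passages 2, 3 and 4, and none of the blue points passed at a single passage.

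Whether the effect of added miR-126 itself differed between passages 4 and 1 was tested as an interaction. It was lower at passage 4 for 4 of 7 genes, where 5.94% of all genes were lower: Tnip3 (-3.85 ± 0.70, adjusted p = 0.00085), Nfkbie (-3.36 ± 0.66, adjusted p = 0.00168), Tnfaip3 (-2.74 ± 0.46, adjusted p = 0.000384) and Nfkbia (-1.18 ± 0.34, adjusted p = 0.0275). With the arrays of low spread left out, the first 3 kept the call, at -4.28 (adjusted p = 0.00234), -2.74 (adjusted p = 0.0398) and -2.57 (adjusted p = 0.00937), and Nfkbia lost it (-1.0, adjusted p = 0.241), as it did in 6 of 12 fits that each left out 1 array (-1.30 to -1.08 over the 12). The change was -1.67 for Tnf (adjusted p = 0.0697), -1.39 for Icam1 (adjusted p = 0.1) and -1.46 for Nfkbiz (adjusted p = 0.103).

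Within AE9a+miR-126, 6 of 7 genes were lower at passage 4 than at passage 1, where 13.2% of all genes were lower and the median of all genes was 0.127 (0.002 after cyclic loess). Tnip3 fell by 4.42 ± 0.50 (21.4-fold, adjusted p = 1.49e-07), Nfkbie fell by 3.27 ± 0.46 (9.63-fold, adjusted p = 5.76e-06) and Tnfaip3 fell by 2.68 ± 0.33 (6.42-fold, adjusted p = 6e-07). Icam1 read 8.33, 9.07 and 7.39 at passage 4, against 10.18, 10.83 and 10.32 at passage 1, and fell by 2.18 ± 0.40 (adjusted p = 0.000218). Tnf fell by 1.70 ± 0.43 (adjusted p = 0.00516) and Nfkbia fell by 1.61 ± 0.24 (adjusted p = 1.08e-05), both without overlap between the passages. Every passage 4 array lay below every passage 1 array for 14.2% of all genes. Nfkbiz did not pass (-0.81, adjusted p = 0.16). All 6 calls held without the arrays of low spread, which leaves 1 array at passage 4 (Tnip3 -4.85, adjusted p = 2.38e-05; Nfkbie -2.65, adjusted p = 0.00508).

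In AE9a, 0 of 7 genes passed between passages 4 and 1 in limma (2.94% of all genes passed in either direction). Tnf averaged 11.29 ± 0.35 at passage 4 and 11.31 ± 0.42 at passage 1 (SD, n = 3 each), and the arrays overlapped (-0.02). Among the 7 the difference farthest from 0 was that of Icam1 (-0.79, adjusted p = 0.382). In miR-126KO+AE9a 1 gene passed, Nfkbiz, at 9.82, 9.93 and 9.61 at passage 4, against 8.03, 7.61 and 9.09 at passage 1, a rise of 1.54 ± 0.43 (adjusted p = 0.032, where 1.38% of all genes rose) that was lost in 5 of 6 fits that each left out 1 array (1.23 to 1.97 over the 6). Tnip3 read 9.18, 9.48 and 9.10 at passage 4 of the knockout arm, against 10.88, 10.62 and 10.27 at passage 1, a difference of -1.34 that did not pass (adjusted p = 0.16) although the arrays did not overlap. Every passage 4 array of that arm lay below every passage 1 array for 12.4% of all genes.

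Fewer members differed between miR-126KO+AE9a and AE9a. At single passages 0 of 7 genes passed in limma, where 2.09%, 3.99%, 1.05% and 1.33% of all genes passed in either direction at passages 1, 2, 3 and 4. Averaged over the 4 passages, Tnf alone passed, at -0.70 ± 0.22 (1.63-fold lower, adjusted p = 0.0375), where 5.29% of all genes were lower. Tnf ran from 9.33 to 11.58 with a median of 10.93 over 12 knockout arrays, and from 10.85 to 11.96 with a median of 11.54 over 12 AE9a arrays, so the arms overlapped. The call was lost in 13 of 24 fits that each left out 1 array (-0.81 to -0.57 over the 24) and without the arrays of low spread (-0.61, adjusted p = 0.0647). It was also lost with passage as the unit (adjusted p = 0.796 in limma). For Tnip3 the difference was 0.51 ± 0.25 (adjusted p = 0.271, 95% interval 0.00 to 1.02) and for Tnfaip3 0.11 ± 0.16 (95% interval -0.23 to 0.44). The change of the knockout's effect between passages 4 and 1 passed for 0 of 7 genes (0.428% of all genes in either direction).

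AE9a+miR-126 against miR-126KO+AE9a sets added against deleted miR-126. At passage 1, Nfkbiz read 9.92, 10.39 and 10.13 with added miR-126, against 8.03, 7.61 and 9.09 in the knockout arm, and was higher by 1.90 ± 0.43 (3.74-fold, adjusted p = 0.0241), and Tnfaip3 was higher by 1.36 ± 0.33 (adjusted p = 0.0456). Only 0.149% of all genes were higher there, and leaving out single arrays took the call from Nfkbiz in 4 of 6 fits (1.58 to 2.33) and from Tnfaip3 in 5 of 6 (1.20 to 1.65). At passage 2, Tnip3 (-2.16, adjusted p = 0.011) and Tnfaip3 (-1.32, adjusted p = 0.0192) were lower, where 2.24% of all genes were. Tnip3 lost the call there without miR-126KO+AE9a replicate 1 (-1.96, adjusted p = 0.0517) or replicate 2 (-1.86, adjusted p = 0.0563), and Tnfaip3 lost it without the arrays of low spread (-0.72, adjusted p = 0.578). The passage 2 call of Tnfaip3 was also lost in 4 of 6 fits that each left out 1 array (-1.61 to -1.06 over the 6). At passage 3 all members but Nfkbiz were lower (25.4% of all genes were), with Tnip3 at 5.35, 5.65 and 5.42 in AE9a+miR-126, against 10.87, 9.51 and 9.35 in the knockout arm (-4.44, 21.7-fold lower). Of those 6 calls, Tnf (-0.16, adjusted p = 0.803), Nfkbia (-0.20, adjusted p = 0.598) and Icam1 (-0.20, adjusted p = 0.788) were lost with cyclic loess. Tnf was also lost without AE9a+miR-126 replicate 3 (-0.86, adjusted p = 0.135) or miR-126KO+AE9a replicate 1 (-1.11, adjusted p = 0.0554), and Icam1 without the second of these arrays (-0.89, adjusted p = 0.0822). At passage 4, Tnip3 (-3.64, 12.4-fold lower, adjusted p = 5.13e-06), Nfkbie (-1.90, adjusted p = 0.00556) and Tnfaip3 (-1.76, adjusted p = 0.000363) were lower, where 8.30% of all genes were. Without the arrays of low spread Tnip3 (-4.07, adjusted p = 0.000241) and Tnfaip3 (-1.59, adjusted p = 0.0354) kept the call and Nfkbie (-1.28, adjusted p = 0.248) did not. In the average over 4 passages no member passed with passage as the unit (Tnip3 adjusted p = 0.0792 in limma). In the model of all arrays Tnip3 (-2.70 ± 0.25, 6.48-fold lower, adjusted p = 1.47e-09), Nfkbie (-1.55 ± 0.23, adjusted p = 6.05e-06) and Tnfaip3 (-1.04 ± 0.16, adjusted p = 1.37e-05) were lower in that average, where 21.7% of all genes were. With the arrays of low spread left out, Tnip3 kept that call (-2.67, adjusted p = 3.07e-05), Nfkbie (-0.66, adjusted p = 0.275) and Tnfaip3 (-0.31, adjusted p = 0.555) did not, and Nfkbiz passed at 0.97 (adjusted p = 0.0158).

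The order of the 13 group means differed between the genes (the ± sign in this paragraph gives the SD, n = 3). AE9a+miR-126 at passage 1 was highest for Tnf (12.07), Tnfaip3, Nfkbia, Nfkbie and Icam1, miR-126KO+AE9a at passage 1 for Tnip3 (10.59 ± 0.31) and AE9a at passage 4 for Nfkbiz (10.19). Normal controls were lowest for Tnf (8.84 ± 0.78), Tnfaip3 (7.67 ± 0.37), Nfkbia (9.38 ± 0.35) and Icam1 (7.09 ± 0.26). For Tnip3 the 4 lowest means were AE9a+miR-126 at passage 2 (6.20 ± 0.76), normal controls (5.78 ± 0.59) and AE9a+miR-126 at passages 4 (5.62 ± 0.40) and 3 (5.48 ± 0.16), which overlapped as neighbours and were set off without overlap from the next, miR-126KO+AE9a at passage 2 (8.37 ± 0.87). For Nfkbie the 3 late AE9a+miR-126 means (6.34 ± 0.56, 5.31 ± 0.48 and 6.0 ± 0.55 at passages 2, 3 and 4) lay without overlap below the normal controls (7.46 ± 0.26). Nfkbiz had no pair of neighbouring groups free of overlap.

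**Figure D4:**
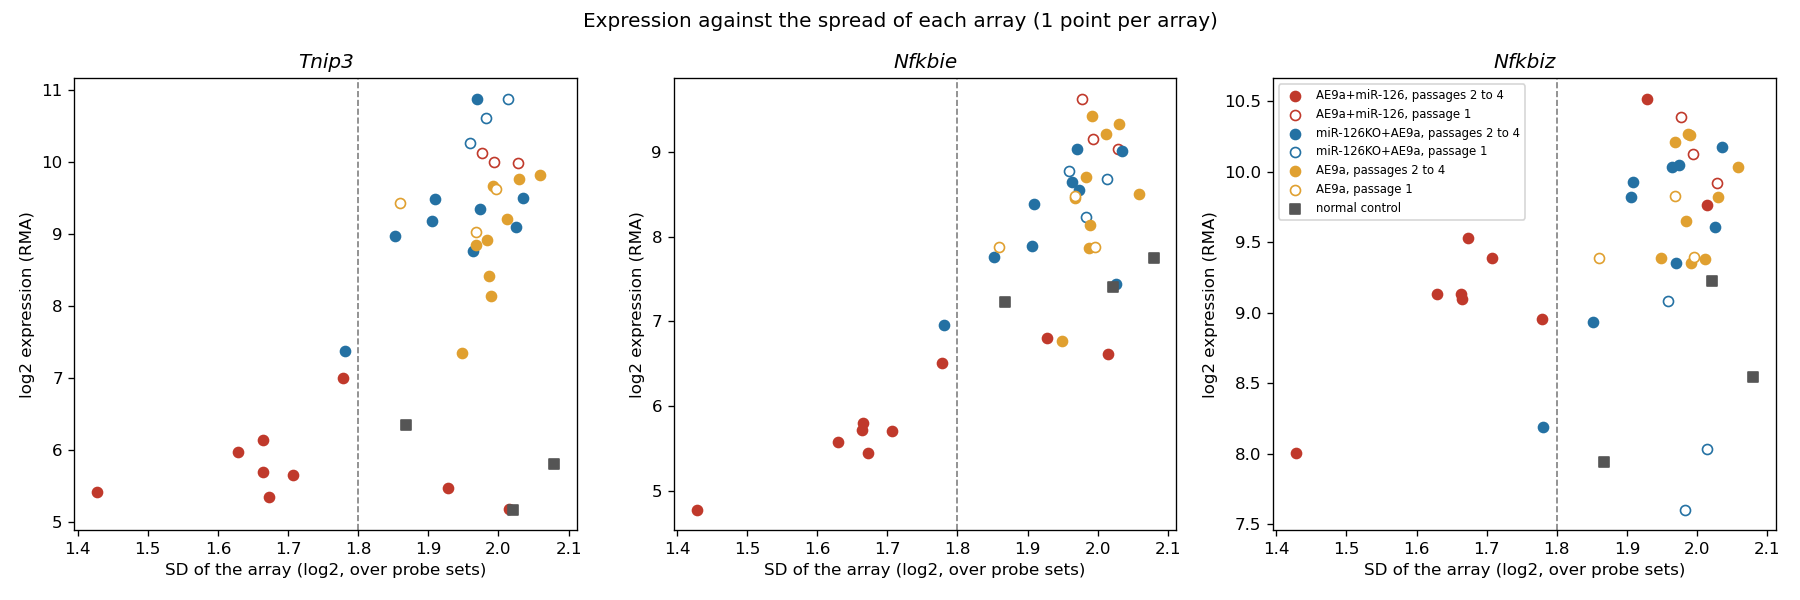
Log2 expression of Tnip3, Nfkbie and Nfkbiz on each of the 39 arrays (vertical axis) against the spread of the array, the SD over its probe sets (horizontal axis), coloured by arm, with a dashed line at 1.8. The 2 AE9a+miR-126 arrays of passages 2 and 4 that lie right of the line read 5.19 and 5.48 for Tnip3, where the 7 left of it ran from 5.35 to 7.0, and lie above those 7 for Nfkbie and Nfkbiz.

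The late AE9a+miR-126 arrays can be read on both sides of that line. The 7 arrays of low spread ran from 5.35 to 7.0 for Tnip3, and the 2 others read 5.19 and 5.48. For Nfkbie the 7 ran from 4.78 to 6.51 and the 2 others read 6.62 and 6.81. For Nfkbiz the 7 ran from 8.01 to 9.53 and the 2 others read 9.76 and 10.52. Tnip3 was thus low on arrays of either kind, and Nfkbie and Nfkbiz were lower on the arrays of low spread. Tnf did not separate, at 9.07 to 10.91 on the 7 and 9.94 and 10.88 on the 2 others.

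Genes with the pattern most like each member were taken as the 3 with the highest Pearson correlation over the 39 arrays, which share arms and passages. They are a description of these arrays. Nfkbie was closest to Nfkbib (0.937, and 0.901 after group means were removed), which encodes IκBβ, and Icam1 to Relb (0.896), an NF-κB subunit. Tnf was closest to Spag9 (0.895) and Cd44 (0.895), Tnfaip3 to Ifrd1 (0.901), Nfkbia to Il1a (0.891) and Sqstm1 (0.889), Tnip3 to Havcr2 (0.930) and Nfkbiz to Wsb1 (0.847). Among the members, Tnf and Nfkbia were most alike (0.883), and Nfkbiz and Tnip3 least (0.18, and -0.223 after group means were removed).

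The rest of the pathway was counted from lists of known genes. Of 4 measured NF-κB subunit genes 3 rose in AE9a at passage 1 against normal, with a median of 1.09 (0.0266 over all genes): Relb by 1.06 ± 0.23 (adjusted p = 0.00299), Nfkb2 by 1.42 ± 0.31 (adjusted p = 0.00376) and Rel by 1.12 (adjusted p = 0.0138), while Rela read 0.63 (adjusted p = 0.0676). Of 20 other inhibitors and feedback genes 7 rose and 0 fell (median 0.72), among them Tnip1, which encodes the A20 partner ABIN-1 (2.50 ± 0.41, adjusted p = 0.000178), and Irak2, a kinase of Toll receptor signalling (2.02, adjusted p = 0.000136). Irak2 is not an inhibitor, and this list is called inhibitors below only for short. Of 41 other NF-κB targets 17 rose and 1 fell (median 0.73), with the chemokine gene Ccl3 at 1.78 ± 0.26 (adjusted p = 5.33e-05). Of 20 genes of TNF and Toll receptor signalling 4 rose, Tnfrsf1b, the second TNF receptor, by 1.98 (adjusted p = 0.000512). Of 11 adhesion ligands and Icam1 partners 0 passed in limma in this comparison.

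Over the 4 passages these lists stood lower with added miR-126 than in AE9a, where 24.3% of all genes were lower and 30.7% higher. With passage as the unit 1 gene of all passed in that comparison. At passage 1 alone the medians of 4 of the 5 lists were above 0, at 0.48 for the subunits, 0.30 for the inhibitors, 0.16 for the targets and 0.12 for the signalling genes (-0.01 over all genes), with 2 targets called higher, and the median of the adhesion genes was -0.11 with 1 called higher. Averaged over 4 passages all 4 NF-κB subunit genes fell (median -0.49, beside 0.0801 over all genes), Nfkb2 at -0.87 ± 0.16 (adjusted p = 5.4e-05). Of 20 other inhibitors and feedback genes 17 fell (median -0.56), among them Irak2 (-1.89 ± 0.16, adjusted p = 5.66e-10) and Bcl3, the gene of another nuclear IκB protein (-1.31). Of 41 other targets 22 fell and 3 rose (median -0.61), with Ccl5 at -2.49 (adjusted p = 6.65e-09). Ccl5 is also in the list of T and NK cell markers. The mean level of that list was 5.89 with added miR-126 and 6.08 in AE9a at passage 1. At passage 4 it was 5.44 with added miR-126 and 7.52 in AE9a, against 6.74 in the controls. Of 20 signalling genes 16 fell (median -0.57), Myd88, the adaptor of Toll receptors, at -0.79 (adjusted p = 4.7e-07). Of the 11 adhesion genes 7 fell (median -1.14), among them both chains of Mac-1, an integrin that binds Icam1, Itgam at -2.57 (adjusted p = 1.59e-09) and Itgb2 at -1.39 (adjusted p = 1.33e-07). The counts shrank without the arrays of low spread, a setting chosen for the lists after seeing the data, to 0 of 4 subunits, 3 of 20 inhibitors, 9 of 41 targets, 2 of 20 signalling genes and 3 of 11 adhesion genes lower, where 2.33% of all genes were. With cyclic loess they were 2, 9, 18, 6 and 8, where 17.5% of all genes were lower.

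Within AE9a+miR-126, passage 4 against passage 1 gave a like picture. Where 13.2% of all genes were lower, all 4 subunit genes fell (median -1.12), as did 12 of 20 inhibitors (median -1.01) and 20 of 41 targets (median -0.97, with 1 higher). Without the arrays of low spread 1 AE9a+miR-126 array is left at passage 4, so list counts under that setting rest on that array and are not given here. Tnip1 fell by 3.42 (adjusted p = 3.67e-07), Irak2 fell by 3.74 ± 0.32 (adjusted p = 1.94e-09) and Cd40, a receptor of the TNF family, fell by 3.72 ± 0.43 (adjusted p = 2.56e-07). In AE9a over the same interval 0 of 4 subunits passed in limma and the inhibitors split, 2 higher and 2 lower (2.02% and 0.915% of all genes), with Tnip1 at -2.02 ± 0.41 (adjusted p = 0.00344) and Dusp1, a phosphatase of MAP kinases, at 1.60 (adjusted p = 0.00067).

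In the knockout arm against AE9a over 4 passages, 0 of 4 subunits passed in limma, and 4 of 20 inhibitors (median -0.21) and 12 of 41 targets (median -0.37) fell, where 5.29% of all genes did. Nfkbid, the gene of a further nuclear IκB protein, fell by 1.25 ± 0.23 (adjusted p = 0.000394) and Bcl2l1, an inhibitor of apoptosis, fell by 1.39 (adjusted p = 1.86e-05). Tnfrsf1a, the first TNF receptor, fell by 0.74 (adjusted p = 0.00407).

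Markers of mature myeloid cells moved in the same comparisons. Of 19 measured neutrophil markers 18 were lower with added miR-126 than in AE9a over 4 passages (median -2.06), where 24.3% of all genes were lower. At passage 2 the count was 1 and at passages 3 and 4 it was 18 each, where 5.68%, 24.8% and 12.0% of all genes were lower. In the knockout arm 17 were lower than in AE9a (median -1.62), beside 5.29% of all genes. Their mean level per array ran from 9.63 to 11.26 at passage 2 and from 6.46 to 6.51 at passage 4 with added miR-126, against 9.98 to 10.96 and 10.65 to 11.19 in AE9a. Of 22 monocyte and macrophage markers 17 were lower and 1 higher with added miR-126 (median -0.83), with 9, 14 and 9 lower at passages 2, 3 and 4, and their mean level ran from 6.83 to 7.51 at those passages, against 7.70 to 8.75 in AE9a and 7.64 to 7.91 in the controls. At passage 2 the neutrophil level overlapped between the arms and the monocyte and macrophage level did not, at 7.30 to 7.35 with added miR-126, against 8.27 to 8.72 in AE9a. Adgre1, which encodes a surface antigen of macrophages, read 5.94 ± 0.82 (SD, n = 3) with added miR-126 and 9.59 ± 0.51 in AE9a at passage 4. In the knockout arm 3 of these 22 were lower and 4 higher than in AE9a (5.29% and 2.88% of all genes). Markers of some other cells were lower with added miR-126 over 4 passages as well, 11 of 15 of T and NK cells, 8 of 11 of mast cells and basophils, 6 of 12 of erythroid cells and 6 of 13 of dendritic cells and MHC class II. The marker counts with added miR-126 rest on all arrays and are not given without those of low spread. Primary granule and progenitor markers had mean levels of 7.86, 8.24, 8.05 and 8.47 with added miR-126 at passages 1, 2, 3 and 4. In AE9a those levels were 7.68, 7.93, 8.13 and 8.35. How much of the falls of the NF-κB genes goes with fewer myeloid cells was not tested. Against normal marrow at passage 1, where 5 members rose in AE9a, 0 of the 19 neutrophil markers passed in limma and 1 of 22 monocyte and macrophage markers was higher and 3 lower. Other marker lists were lower there, where 5.64% of all genes were. Of 12 erythroid markers 11 fell, and their mean level was 5.48 to 5.60 in AE9a and 7.55 to 8.28 in the controls. Of 12 B cell markers 8 fell, at 6.0 to 6.58 in AE9a and 7.48 to 8.09 in the controls. Of 11 mast cell and basophil markers 6 fell, at 5.55 to 6.04 in AE9a and 7.55 to 8.09 in the controls. Of 15 primary granule and progenitor markers 3 fell, at 7.32 to 8.03 in AE9a and 8.68 to 9.07 in the controls. The counts were 4 of 13 for dendritic cells and MHC class II and 3 of 15 for T and NK cells. The part of these cells in the rise of the NF-κB genes was not tested.

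The sorted population was checked by 5 leukocyte genes at passage 3, where all 3 AE9a+miR-126 arrays were of low spread. Ptprc, which encodes CD45, read 10.06 ± 0.66 (SD, n = 3) in AE9a+miR-126 and 10.99 ± 0.14 in AE9a. Cd52, a leukocyte surface antigen, read 5.53 ± 0.13 in AE9a+miR-126 and 8.58 ± 0.41 in AE9a. Coro1a averaged 8.55 in AE9a+miR-126 and 9.88 in AE9a, and Laptm5 averaged 8.77 and 9.57 in that order. Spn went the other way on average. Its arrays overlapped, at 6.97 to 7.82 in AE9a+miR-126 and 7.03 to 7.94 in AE9a. Stroma and endothelium markers stayed at mean levels of 5.27 to 5.78 in every group.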

How the data were processed

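RNA of donor cells sorted from the marrow of 39 recipient mice was measured on 1-colour Affymetrix arrays, 1 array per mouse. The log2 values used here were deposited by the authors for 27037 probe sets and made with RMA and Partek 6.0, per the submitters' processing notes. Any filter, background correction or batch step was not given in the sources used here.

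Probe sets with a single symbol in the platform annotation numbered 23521, beside 1814 with several and 1702 without one. The single-symbol ones were used, which left 22180 genes with the probe set of highest mean each. All arrays entered 1 model of 13 group means in limma 3.58.1 (R 4.3.3, 26 residual degrees of freedom), with Benjamini-Hochberg adjustment over all genes and no minimum fold. Median standard errors were 0.222 for 3 arrays against 3, 0.111 for 4-passage averages and 0.314 for changes of an effect, so the number of arrays limits the precision. The fits were tested on simulated data.

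Groups came from the array titles. Replicate numbers did not pair the arrays: residuals of same-numbered arrays correlated at -0.671 to 0.635 (median -0.025).

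The 7 members, the pathway lists and the marker lists were chosen with earlier results of these data known. The rule for named genes took all members, the 3 genes most correlated with each and up to 4 genes of a list with the smallest adjusted p. Each result was recomputed with only the compared groups, a replicate block, a trended and robust prior, dim genes filtered out, every probe set, cyclic loess or quantile normalization, array weights, the array spread as a covariate, passage as the unit or a 2-fold minimum, and without single arrays or those of low spread. Repeating the list counts under 3 of these was decided after seeing the data.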

Additional observations from a re-analysis of the deposited data

Results flagged for a closer look

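The effect of added miR-126, AE9a+miR-126 minus AE9a, was lower at passage 4 than at passage 1 for 4 genes, by a test of the difference itself in limma. For Tnip3 the effect was -3.17 at passage 4 and 0.67 at passage 1, a change of -3.85 ± 0.70 (adjusted p = 0.00085). For Nfkbie it was -2.17 at passage 4 and 1.19 at passage 1, a change of -3.36 ± 0.66 (adjusted p = 0.00168). For Tnfaip3 it was -1.87 at passage 4 and 0.86 at passage 1, a change of -2.74 ± 0.46 (adjusted p = 0.000384). For Nfkbia it was -0.66 at passage 4 and 0.52 at passage 1, a change of -1.18 ± 0.34 (adjusted p = 0.0275). None of the passage 1 effects passed by itself. The call of Nfkbia was lost with cyclic loess (-0.64, adjusted p = 0.296) and in 6 of 12 fits that each left out 1 array. Groups of 3 arrays were not tested for outlying arrays.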

How the results depend on the processing

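Of 122 member differences that passed, over all comparisons, 1229 of 1338 alternative fits kept the call, 109 lost it and 0 turned the sign. Of 1032 fits that each left out 1 array 932 kept it and 100 lost it, and 0 turned. Precision is limited by 3 arrays a group, and signal over background was not given. Counts of members that passed are given with the value under the alternative first. With a 2-fold minimum they were 2 in place of 5 for AE9a+miR-126 at passages 2 to 4 against normal, 2 in place of 6 for AE9a+miR-126 against AE9a over 4 passages and 0 in place of 1 for miR-126KO+AE9a against AE9a. With only the compared groups in the fit, passage 4 against passage 1 gave 1 in place of 0 in AE9a and 2 in place of 1 in miR-126KO+AE9a. Array weights gave 5 in place of 1 for miR-126KO+AE9a against AE9a, 2 and 3 in place of 0 and 1 for passage 4 against passage 1 in AE9a and miR-126KO+AE9a, and 7 and 1 in place of 4 and 0 for the changes of the effects of added and deleted miR-126. For AE9a+miR-126 against AE9a cyclic loess gave 3 and leaving out the arrays of low spread 1, in place of 6. For miR-126KO+AE9a against AE9a the spread as a covariate gave 2 and leaving out those arrays 0, in place of 1. With passage as the unit 0 members passed in each of the 3 averages in limma, in place of 6, 1 and 3. The cause of these moves was not tested.

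Differences that had not passed turned their sign as follows. For Tnip3 at passages 2 to 4 of AE9a+miR-126 against normal (-0.01), array weights and cyclic loess both gave 0.61. For Nfkbiz in AE9a+miR-126 against AE9a (-0.25), cyclic loess gave 0.23, quantile normalization 0.13, the spread as a covariate 0.40 and leaving out low spread 0.32. Between AE9a+miR-126 and miR-126KO+AE9a, Nfkbia (-0.28) read 0.12 with cyclic loess and 0.088 without low spread, and Icam1 (-0.24) read 0.18 with cyclic loess and 0.11 with quantile normalization. In miR-126KO+AE9a against AE9a, Tnfaip3 (0.11) read -0.014 with array weights and Nfkbie (-0.11) 0.011 with the spread as a covariate. In AE9a between passages 4 and 1, Tnfaip3 (0.05) read -0.17 with array weights, -0.0021 with cyclic loess and -0.032 with the covariate, and Nfkbie (0.09) read -0.21, -0.038 and -0.15 under those settings and -0.0083 with quantile normalization. With array weights Tnf in miR-126KO+AE9a between passages 4 and 1 (-0.36) read 0.062, and the change of the knockout's effect read 0.17 for Tnf (-0.34) and 0.32 for Icam1 (-0.20).

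Leaving out single arrays, counts ran from 0 to 3 for miR-126KO+AE9a against AE9a, 0 to 1 for its passage 4 against passage 1, 3 to 5 for the change of the effect of added miR-126, 5 to 7 for AE9a+miR-126 at passage 1 and for AE9a at passages 2 to 4 against normal, 4 to 6 and 5 to 6 for AE9a+miR-126 and miR-126KO+AE9a at passages 2 to 4, and 3 to 4 for AE9a+miR-126 against miR-126KO+AE9a. Differences that had not passed and turned ran from -0.012 to 0.18 (Tnfaip3) and -0.32 to 0.0081 (Nfkbie) in miR-126KO+AE9a against AE9a. In AE9a between passages 4 and 1 they ran from -0.26 to 0.16 (Tnf), -0.15 to 0.22 (Tnfaip3) and -0.078 to 0.29 (Nfkbie). For the change of the knockout's effect they ran from -0.71 to 0.20 (Tnf), -0.17 to 0.38 (Nfkbia) and -0.49 to 0.13 (Icam1). Others were Tnf in AE9a+miR-126 against miR-126KO+AE9a (-0.061 to 0.18), Nfkbiz of miR-126KO+AE9a at passage 1 against normal (-0.75 to 0.00038), Tnf in miR-126KO+AE9a between passages 4 and 1 (-0.73 to 0.18) and Tnip3 of AE9a+miR-126 at passages 2 to 4 against normal (-0.31 to 0.27).

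With the replicate number as a block the 14 counts of members were unchanged, and 1 single-passage call was lost, Nfkbia in AE9a+miR-126 against AE9a at passage 2 (-0.75, adjusted p = 0.0537). The numbers did not pair the arrays.

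Counts over all genes moved by more than 1.5 times in every comparison. The highest counts came with array weights. Against normal at passage 1, AE9a+miR-126 gave 2159 (1223 to 8273), miR-126KO+AE9a 2393 (1473 to 6099) and AE9a 1967 (1089 to 6954), and at passages 2 to 4 they gave 11858 (1778 to 16212), 2875 (1205 to 8750) and 2747 (1142 to 7018). Over 4 passages, AE9a+miR-126 against AE9a gave 12211 (1 to 16599), miR-126KO+AE9a against AE9a 1812 (26 to 5941) and AE9a+miR-126 against miR-126KO+AE9a 11016 (267 to 15272). Passage 4 against passage 1 gave 5395 (1559 to 16509) in AE9a+miR-126, 897 (664 to 3634) in miR-126KO+AE9a and 652 (487 to 3691) in AE9a. The changes of the effects gave 2336 (751 to 13981) and 95 (78 to 1731).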

Other observations

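Immediate early genes, which cells switch on within minutes of a stimulus, had medians above 0 between passages 4 and 1 in all 3 arms. The mean level of the list at passages 1, 2, 3 and 4 was 8.73, 9.52, 9.25 and 9.54 in AE9a+miR-126, 8.54, 9.69, 9.87 and 9.82 in miR-126KO+AE9a and 8.40, 9.87, 9.76 and 10.36 in AE9a. Of 19 measured genes 9 rose in AE9a+miR-126, 9 in miR-126KO+AE9a and 15 in AE9a between passages 4 and 1, and 0 fell, with medians of 1.16, 1.54 and 2.11 beside 0.13, 0.01 and -0.05 over all genes. In those 3 comparisons 11.1%, 1.38% and 2.02% of all genes rose. Jun, a subunit of the AP-1 transcription factor, rose by 1.17 (adjusted p = 0.000162), 1.66 (adjusted p = 1e-05) and 1.73 (adjusted p = 1.08e-05) in the arms in that order. Fos, its partner, rose by 2.53 (adjusted p = 0.000719) with added miR-126 and by 3.56 (adjusted p = 5.56e-05) in the knockout arm. In AE9a Fos averaged 6.70 ± 0.63 at passage 1 and 9.95 ± 0.12 at passage 4 (SD, n = 3 each). Without the arrays of low spread 12 rose and 1 fell in miR-126KO+AE9a and 17 rose in AE9a in limma, where 3.25% and 5.44% of all genes rose. No AE9a or miR-126KO+AE9a array of passages 1 and 4 was of low spread. The setting thus left these differences as they were and changed only the variance estimate shared by the model. In AE9a+miR-126 that setting leaves 1 array at passage 4.

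Against the normal controls 3, 2 and 1 of these 19 rose and 1, 3 and 3 fell at passage 1 in AE9a+miR-126, miR-126KO+AE9a and AE9a, where 4.56%, 4.88% and 3.22% of all genes rose and 5.18%, 5.91% and 5.64% fell. At passages 2 to 4, 9, 14 and 14 rose and 0 fell, with medians of 0.74, 1.32 and 1.44, where 29.2%, 5.03% and 6.04% of all genes rose, and passage and leukaemia cannot be told apart there. Ccl2, a chemokine gene and NF-κB target, rose by 4.71 ± 0.69 in AE9a between passages 4 and 1 (adjusted p = 0.000101), where 0 of the 7 members passed.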
